A study of Sus scrofa with 10 samples.

Results

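MSTRG.23826 is a protein-coding locus on pig chromosome 4, and 4 unannotated loci that were assembled beside it, MSTRG.23822, MSTRG.23823, MSTRG.23824 and MSTRG.23830, are described here together with it. These 5 loci were taken by their identifiers from the 43499 gene loci of the deposited table. They were chosen with the group difference in view, since their mean FPKM (fragments per kilobase of transcript, scaled to library size) was higher in the treatment group. The values of that contrast are therefore a description, and where the outcome of a test of it is printed, nothing is supported with it. All 5 loci had a mean FPKM of at least 0.1, the limit for testing. The control mean alone reached it at MSTRG.23822 (0.208), MSTRG.23823 (0.165) and MSTRG.23824 (0.126). MSTRG.23826 and MSTRG.23830, with control means of 0.0739 and 0.0924, passed it only through the rpFSH treatment group.

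The ovaries came from 10 gilts of the same genetic background, with 5 pigs and 5 separate libraries in each group. Before this comparison the progestin altrenogest, which suppresses oestrus, was given in the feed to every gilt, the controls included, starting at 210 days of age (20 mg daily over 18 days), and was then withdrawn for 2 days. The rpFSH treatment group was then injected with 1000 IU of rpFSH (recombinant pig follicle-stimulating hormone) per pig, and the control group with saline. The ovaries were collected at 234 days of age once the surface follicles had been removed. The pigs are named control 1 to control 5 and rpFSH 1 to rpFSH 5 after the numbers in the sample labels. In these bulk samples, fewer cells of a type and less RNA per cell cannot be told apart. Counts summed to between 64873797 and 75114003 per pig, and no pair of libraries held identical counts. Transcripts of granulosa cells and stroma were present in every library, with a summed FPKM of 5 granulosa markers between 6.36 and 85.7 and of 4 stroma markers between 186 and 1312.

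Olfactory receptors are G protein-coupled receptors that bind odorants on the sensory neurons of the nose, where each neuron settles on the expression of a single receptor gene. They form one of the largest gene families of mammals, lie in clusters along the chromosomes and are mostly silent outside the nose. Long non-coding RNAs are transcripts without an evident protein product, and those transcribed beside or across a gene are often examined as candidate regulators of it in cis.

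The 2 Ensembl genes joined in MSTRG.23826, ENSSSCG00000035936 and ENSSSCG00000033862, are both described in the table as olfactory receptor 5V1-like. On Sscrofa11.1, the build that the submitters' processing notes name, MSTRG.23826 runs on the minus strand of chromosome 4 from 100135551 to 100169872, a length of 34322 bp. In the RefSeq annotation of the same build, LOC110260330 (100142137 to 100144856) and LOC110260331 (100162796 to 100164928) lie within it, and they are the only 2 RefSeq genes in the 207 kb between BCL9 and CHD1L. BCL9 encodes a co-activator of Wnt signalling, and CHD1L a chromatin remodelling enzyme of DNA repair. MSTRG.23822 runs on the plus strand from 100083487 to 100256936 over 173450 bp and covers the other 4 loci. The table writes the names ENSSSCG00000035936 and CHD1L beside it. MSTRG.23823 (100086025 to 100090002) is on the plus strand, and MSTRG.23824 (100091286 to 100100649) and MSTRG.23830 (100222800 to 100239899) are on the minus strand. The table leaves the type of these 4 loci blank, so they are called unannotated loci here. The study itself lists transcripts of MSTRG.23822 and MSTRG.23824 among its DE long non-coding RNAs, paired in cis with ENSSSCG00000033862. MSTRG.23822 has 3 assembled transcripts and the other 3 have 1 each. Since MSTRG.23822 overlaps the whole of MSTRG.23826 on the other strand, and the counting is not stated to use strand, their reads cannot be told apart with certainty. The methods describe a dUTP library, which marks strand, after removal of rRNA, whereas the sample labels describe poly(A) selection.

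MSTRG.23826 was high in a single pig. Its FPKM was 0.114, 0.0214, 0.0405, 0.125 and 0.0685 in control 1 to 5. It was 14.9 in rpFSH 1, 0.256 in rpFSH 2, 0.0199 in rpFSH 3, 0.908 in rpFSH 4 and 0.0511 in rpFSH 5. rpFSH 1 was thus 119-fold over the highest control and 16.4-fold over rpFSH 4, the second highest pig. rpFSH 2 was 2.05-fold over the highest control, rpFSH 5 lay among the controls, and rpFSH 3 was below all 5 of them. The groups overlapped. The counts behind these values were 29 to 170 in the controls, 19811 in rpFSH 1, 1146 in rpFSH 4 and 25 in rpFSH 3.

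The unannotated loci followed the same order at the top. MSTRG.23822 read 0.219, 0.157, 0.224, 0.303 and 0.138 FPKM in control 1 to 5, and 20.8, 0.325, 0.0629, 2.15 and 0.155 in rpFSH 1 to 5. MSTRG.23823, which lies within it on the same strand, read 0.247, 0.0638, 0.115, 0.302 and 0.0996 in the controls, and 23.1, 0.475, 0.0247, 1.54 and 0.240 in the treated pigs. At both loci rpFSH 1, 4 and 2 were, in this order, the pigs above all controls. MSTRG.23824 read 0.153, 0.152, 0.101, 0.175 and 0.0485 FPKM in the controls, and 19.9, 0.488, 0.0539, 1.31 and 0.201 in the treated pigs. MSTRG.23830 read 0.140, 0.0513, 0.0573, 0.153 and 0.0601 in the controls, and 11.0, 0.278, 0.0401, 0.810 and 0.102 in the treated pigs. MSTRG.23824 was the only one of the 5 loci at which rpFSH 5 was also above every control, and control 5, not rpFSH 3, was its lowest pig. In every locus rpFSH 1 was the highest pig, rpFSH 4 the second and rpFSH 2 the third.

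**Figure D1:**
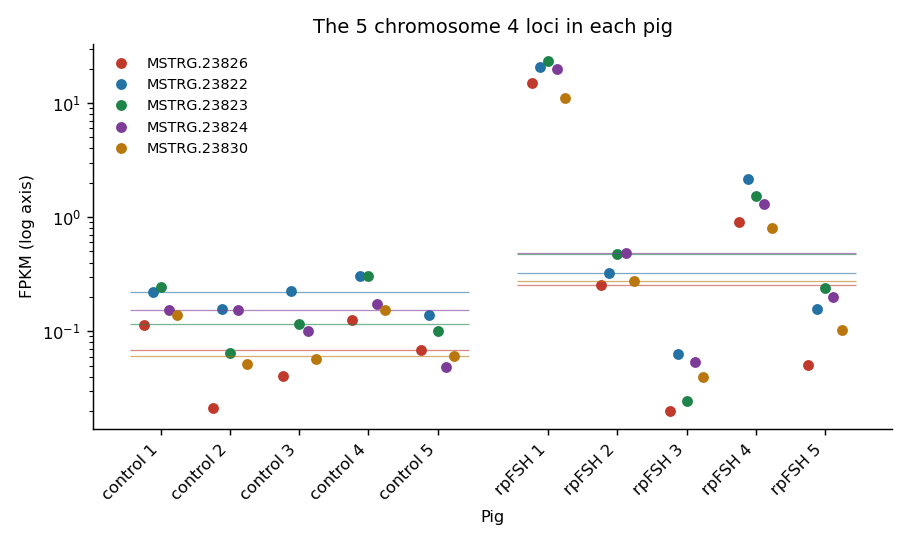
FPKM of the 5 chromosome 4 loci in each of the 10 pigs on a log axis, with each point 1 locus in 1 pig and the thin lines the group medians of each locus. rpFSH 1 stands at 11.0 to 23.1 FPKM, rpFSH 4 at 0.810 to 2.15, and the controls lie between 0.0214 and 0.303.

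Group means followed rpFSH 1. MSTRG.23826 averaged 0.0739 ± 0.0451 FPKM in controls and 3.23 ± 6.55 in treated pigs (SD, 5 pigs a group), and the log2 ratio of these means was 5.45. On the same scale, those of MSTRG.23822, MSTRG.23823, MSTRG.23824 and MSTRG.23830 came to 4.50, 4.94, 5.12 and 4.73. The SD of the treatment group was larger than its mean at each locus. Without rpFSH 1 the log2 ratio of MSTRG.23826 was 2.06, and those of the other loci lay between 1.70 and 2.03. Without rpFSH 1 and rpFSH 4 they were 0.56 for MSTRG.23826, -0.20 for MSTRG.23822, 0.57 for MSTRG.23823, 0.98 for MSTRG.23824 and 0.60 for MSTRG.23830. The direction at MSTRG.23822 therefore turned once both pigs were left out.

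In the study a locus is differentially expressed (DE) when P, not adjusted, is under 0.05 and the group means differ by more than 1 on the log2 scale. With limma on log2 (FPKM + 1), 0 of the 5 loci were called, beside 1.92% of the 36339 loci tested. With the quasi-likelihood test of edgeR on the counts all 5 were called as higher, beside 3.59% of all loci in either direction and 1.09% as higher. DESeq2 called 1 of them as higher and gave no P to the other 4, beside 3.90% in either direction and 1.17% as higher. Nothing is read from these counts, since the loci were chosen on this contrast. At each of the 5 loci at least 3 treated pigs lay above every control, which held for 6.59% of all loci tested.

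Summed over the 5 loci, rpFSH 1 held 65338 counts, or 892 CPM (counts scaled to library size, exact 95% binomial interval from 885 to 899). rpFSH 4 held 62.5 CPM (60.6 to 64.4) and rpFSH 2 19.0 (18.1 to 20.1). The controls held between 3.88 and 9.87 CPM, rpFSH 5 6.96 and rpFSH 3 2.17 (1.83 to 2.56). The intervals cover counting error only, and they were far narrower than the distances between rpFSH 1, rpFSH 4 and rpFSH 2. In summed FPKM, rpFSH 1 alone made up 90.4% of the treatment group's total and 87.5% of the total of all 10 pigs.

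The division of the sum among the 5 loci varied between pigs. MSTRG.23826 made up from 4.80% of the summed FPKM (control 2) to 16.6% (rpFSH 1), and MSTRG.23822 from 17.8% (rpFSH 2) to 41.6% (control 3). MSTRG.23823 made up from 12.3% (rpFSH 3) to 32.0% (rpFSH 5), MSTRG.23824 from 11.7% (control 5) to 34.2% (control 2) and MSTRG.23830 from 10.7% (control 3) to 19.9% (rpFSH 3). In rpFSH 4 the share of MSTRG.23826 was 13.5%, and that of MSTRG.23822 32.1% beside 23.2% in rpFSH 1. The plus-strand loci together stood at 43.9 FPKM and the minus-strand loci at 45.8 FPKM in rpFSH 1, and at 3.69 and 3.03 FPKM in rpFSH 4. These sums may share reads, since the counting is not stated to use strand.

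Over all 10 pigs, the log2 (FPKM + 1) of MSTRG.23826 had a Pearson r of 0.992 with MSTRG.23822, 0.998 with MSTRG.23823, 0.998 with MSTRG.23824 and 1.000 with MSTRG.23830. These values rest mainly on rpFSH 1. In the 8 pigs without rpFSH 1 and rpFSH 4, r was 0.81, 0.92, 0.85 and 0.98, and Spearman's rho was 0.71, 0.93, 0.62 and 0.98, in the same order of loci. In these 8 pigs MSTRG.23826 held 25 to 349 counts, and overlapping loci may share reads. The correlations are descriptions of loci chosen for a shared pattern.

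The high reading of rpFSH 1 did not stop at these 5 loci. Taking every neighbour that was at least 5-fold over the median of the other 9 pigs, an unbroken run of 12 loci was raised, 6 on each strand, from MSTRG.23821 at 100051624 to MSTRG.23832, which ends at 100284211, while the CHD1L locus MSTRG.23831, also in the run, reaches on to 100320023. The 12 loci were put together after their values were seen. Of the 7 that are not among the 5 loci, 4 lie within their span. These, MSTRG.23825, MSTRG.23827, MSTRG.23828 and MSTRG.23829, are also unannotated. MSTRG.23825 read 18.0 FPKM in rpFSH 1, 1.40 in rpFSH 4 and between 0.0759 and 0.254 in the controls. MSTRG.23828 read 15.4, 1.16 and between 0.0525 and 0.295, and MSTRG.23829 read 13.4, 0.926 and between 0.0207 and 0.207. At MSTRG.23825 and MSTRG.23829 rpFSH 2 was the third pig, as at the 5 loci, whereas at MSTRG.23828 it read 0.239, below the 0.295 of control 4. MSTRG.23827 held 52 counts in rpFSH 1 and none in the other 9 pigs. Against a floor of 3 counts per library, it was at least 15.4-fold higher in rpFSH 1.

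At the left end, MSTRG.23821 (100051624 to 100106990) starts inside BCL9 and reaches past its end. It read 15.2 FPKM in rpFSH 1, 1.07 in rpFSH 4, 0.387 in rpFSH 2 and between 0.0377 and 0.152 in the controls. The BCL9 locus itself (MSTRG.23819) read 6.29 FPKM in rpFSH 1, within the control range of 2.96 to 7.06, and MSTRG.23820, which ends 460 bp before MSTRG.23821 starts, read 2.14 against 1.02 to 2.78.

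At the right end the CHD1L locus, MSTRG.23831 (100257228 to 100320023, minus strand), was expressed in every pig. RefSeq places CHD1L from 100264963 to 100425728, so MSTRG.23831 covers only the left part of that gene. MSTRG.23831 read 2.34, 2.19, 2.96, 3.27 and 2.02 FPKM in control 1 to 5, and 19.6, 2.76, 2.23, 3.79 and 2.49 in rpFSH 1 to 5. Its fold in rpFSH 1 over the median of the other 9 pigs, 7.90, was far below the 218 of MSTRG.23826. The excess in FPKM was however alike, at 17.1 for MSTRG.23831 and 14.9 for MSTRG.23826. Over the 11 loci of the run other than MSTRG.23827, this excess lay between 10.9 and 22.9 FPKM with a median of 15.3. In all 11 loci rpFSH 4 was the second highest pig, MSTRG.23831 included, where it was above the 5 controls. The place of rpFSH 1 was fixed by the way the run was put together, and overlapping loci may share reads.

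MSTRG.23833, on the plus strand within the span of the raised CHD1L locus, starts 18.6 kb after the end of MSTRG.23832 and was not raised. It read 1.42 FPKM in rpFSH 1, below the control range of 1.66 to 2.71. FMO5, which encodes a flavin-containing monooxygenase, read 1.32 FPKM in rpFSH 1 and between 1.31 and 3.55 in the controls. PRKAB2, a regulatory subunit of the energy sensor AMPK, read 3.97 against 2.67 to 6.77 at MSTRG.23837. MSTRG.23836, nearer to the 5 loci on the minus strand, has ENSSSCG00000037980 and PRKAB2 written beside it. It read 1.20 in rpFSH 1, below the control range of 1.36 to 2.65. MSTRG.23833, MSTRG.23836 and the FMO5 and PRKAB2 loci all lie within the RefSeq span of CHD1L. The high reading of rpFSH 1 thus covered only part of that span. To the left, GJA5, a gap junction protein of blood vessels, read 5.55 against 4.63 to 6.77, and ACP6, a lysophosphatidic acid phosphatase, read 7.14 against 3.07 to 4.50. The level of ACP6 was 2.00-fold over the median of the other pigs.

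Within 500 kb of the 5 loci there were 42 other loci, 41 of which passed the limit of a mean FPKM of 0.1. Outside the run, 29 averaged an FPKM of 1 or more, and their fold in rpFSH 1 over the median of the other 9 pigs lay between 0.417 and 2.00 with a median of 0.775. rpFSH 1 was the highest pig at 3 of these 29 and the lowest at 10. Among the less expressed loci, MSTRG.23811, antisense to PDZK1, read 1.88 FPKM in rpFSH 1 and was 5.52-fold over that median. None of the 41 was called by limma between the groups (adjusted p of 1.00 each, where the lowest over the whole table was 0.952), beside 1.92% of all loci. Their median log2 ratio was -0.03, and that of all loci tested -0.04. edgeR called 4 of the 41 as higher in the treatment group, beside 3.59% of all loci in either direction and 1.09% as higher. These were MSTRG.23821, MSTRG.23825, MSTRG.23828 and MSTRG.23829, all of them in the run, with an adjusted p of 0.85 each. Nothing is read from these calls, since the run was put together after its values were seen. MSTRG.23829, with a control mean of 0.0981, passed the limit for testing only through the treatment group.

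**Figure D2:**
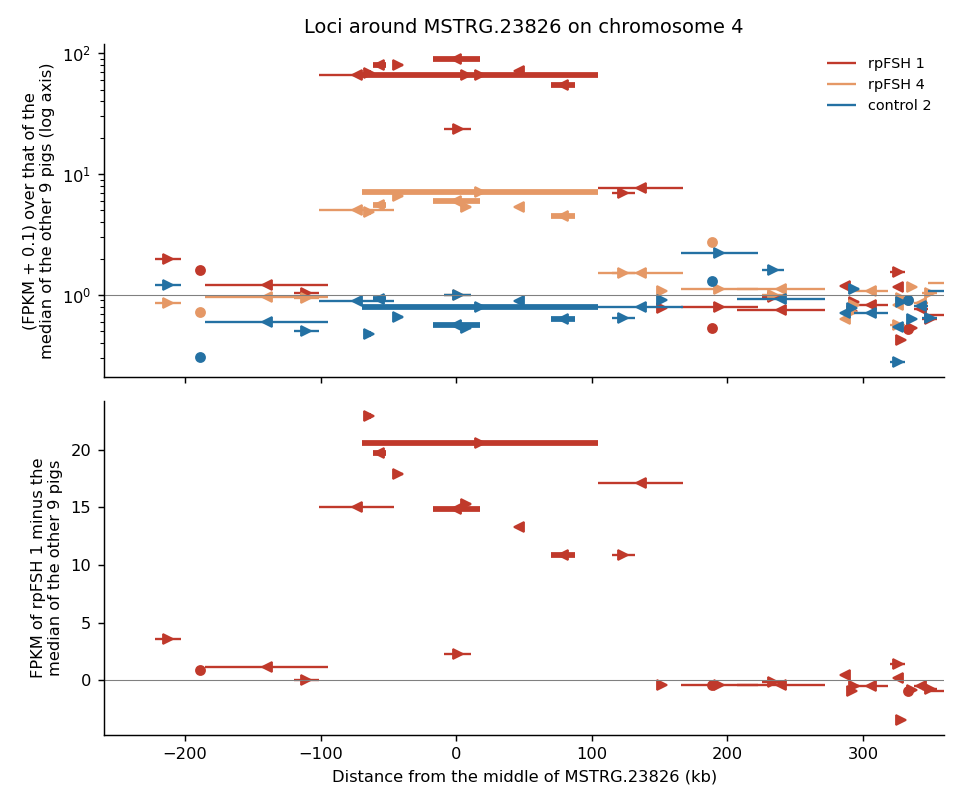
Loci around MSTRG.23826 by their distance from its middle in kb, drawn from start to end with an arrow for the strand and a circle where none is given, and with the 5 loci as thick bars. The upper panel gives (FPKM + 0.1) over that of the median of the other 9 pigs on a log axis for rpFSH 1, rpFSH 4 and control 2, and the lower panel gives the FPKM of rpFSH 1 minus that median, which is 10.9 to 22.9 along the run apart from MSTRG.23827 at 2.26.

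The list of steroidogenic genes holds the cholesterol supply genes, enzymes and electron carriers by which the ovary makes progesterone, androgens and oestrogens. It also holds genes that are not part of this machinery. These are the gonadotrophin receptors FSHR and LHCGR, transcription factors, and the peptide hormone genes INHA, INHBA, INHBB and AMH. All are called steroidogenic here for short. 26 of the 27 genes listed were found, and all 26 were tested. 0 of the 26 was called by limma, and 0 had P under 0.05 without adjustment, beside 4.13% of all loci, while edgeR and DESeq2 also called 0 (DESeq2 gave no P to 4). Their median log2 ratio was 0.17. Levels varied widely within both groups.

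STAR, which carries cholesterol into the mitochondrion, read 3.30, 532, 5.67, 2.78 and 1.52 FPKM in control 1 to 5, and 448, 4.09, 1.93, 121 and 4.23 in rpFSH 1 to 5. CYP11A1, the side-chain cleavage enzyme that makes pregnenolone, read 1758 in control 2, 787 in rpFSH 1, 178 in rpFSH 4 and between 4.85 and 34.4 in the other 7 pigs. HSD3B1, which makes progesterone from pregnenolone, lies on chromosome 4 as well, 1307 kb from the 5 loci. It read 333 in control 2, 322 in rpFSH 1, 129 in rpFSH 4 and between 1.24 and 20.8 in the others. The same 3 pigs were the highest at 7 of the 26 genes, while rpFSH 1 was the highest pig at 8. Control 2 was the highest at 5 and the lowest at 9.

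At the 5 loci control 2 was among the other controls, with 0.446 FPKM summed, where the controls lay between 0.414 and 1.06. Its STAR was above that of rpFSH 1, and its MSTRG.23826 was 0.0214 FPKM, 0.144% of rpFSH 1 and the lowest control. rpFSH 4, with 121 FPKM of STAR, stood at 6.08% of rpFSH 1 in MSTRG.23826. The list of luteal markers is made up of the same 3 genes, STAR, CYP11A1 and HSD3B1, so it adds no evidence of its own. Its sum came to 2623 FPKM in control 2, 1558 in rpFSH 1, 428 in rpFSH 4 and between 7.61 and 53.4 in the others. Theca markers (INSL3 and, from the steroidogenic list, CYP17A1 and LHCGR) summed to 32.0 FPKM in rpFSH 1, 48.3 in rpFSH 4 and 8.55 in control 2, beside 4.38 to 226 in the other pigs. The part of cell composition in the chromosome 4 reading was not tested. Leaving out control 2, rpFSH 1 and rpFSH 4 together, limma called 0 of the steroidogenic genes as well.

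Several steroidogenic genes set rpFSH 1 apart from control 2. NR5A2, a nuclear receptor of granulosa and luteal cells, read 102 FPKM in rpFSH 1, 23.9 in control 2, 22.5 in rpFSH 2, 10.9 in control 4 and 9.69 in rpFSH 4. INHA, the alpha subunit of inhibin made by granulosa cells, read 68.7 in rpFSH 1 and 1.34 in control 2. CYB5A, an electron carrier for steroid synthesis, read 137 in rpFSH 1, 60.6 in control 2 and 53.6 in rpFSH 4. CYP19A1, the aromatase that makes oestrogens, read 1.14 in rpFSH 1, the 7th of the 10 pigs, and 0.110 in control 2. The granulosa markers listed were not all higher in rpFSH 1 than in control 2. FOXL2 was lower, at 0.566 against 2.95, while FSHR read 2.29 against 0.375 and AMH, with SF3A2 in its locus, 3.10 against 1.58. rpFSH 1 was 4.25-fold over the second pig in NR5A2 and 2.25-fold in CYB5A. In INHA it was level with rpFSH 2 and control 4, which read 66.4 and 66.1 FPKM.

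**Figure D3:**
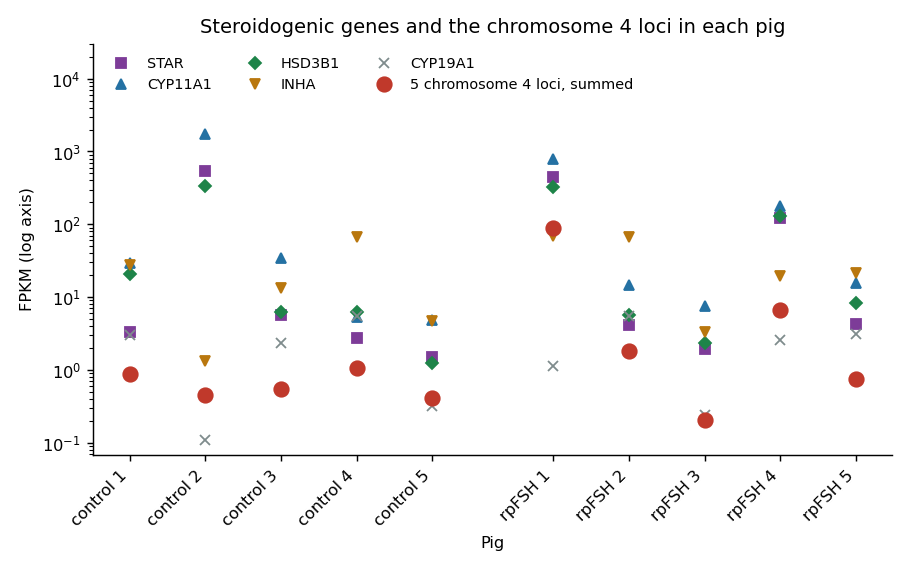
FPKM of STAR, CYP11A1, HSD3B1, INHA and CYP19A1 and the summed FPKM of the 5 chromosome 4 loci in each of the 10 pigs on a log axis. Control 2, rpFSH 1 and rpFSH 4 are the 3 pigs with high STAR, CYP11A1 and HSD3B1, while the chromosome 4 loci are at 0.446 in control 2, 89.7 in rpFSH 1 and 6.72 in rpFSH 4.

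rpFSH 1 and rpFSH 4 stood apart from the rest in the summed level of the 5 loci, so no correlation over all pigs is given with the steroidogenic genes. In the other 8 pigs, where the summed level lay between 0.201 and 1.82 FPKM, 6 of the 26 genes had both a Pearson r and a Spearman's rho above 0.7 on log2 (FPKM + 1). INHA had r = 0.87 and rho = 0.93, CYP19A1 r = 0.87 and rho = 0.90, and POR, the reductase that feeds electrons to these enzymes, r = 0.86 and rho = 0.83. INHBA and INHBB, the beta subunits of inhibin and activin, had r = 0.82 and 0.76, with GLI3 joined to INHBA in its locus, and LHCGR, the receptor for luteinizing hormone, had r = 0.79. Of these 6 genes, only CYP19A1 and POR are listed as enzymes or electron carriers. CYP19A1 and the inhibin subunits are genes that granulosa cells express. Other granulosa markers were not above 0.7 in both, with r = 0.64 for FSHR, 0.61 for FOXL2 and 0.40 for AMH (rho = 0.76, 0.76 and 0.64). STAR, CYP11A1 and HSD3B1 had r = -0.17, -0.17 and -0.03. With the 2 pigs farthest from the median, rpFSH 2 and rpFSH 3, left out as well, r over 6 pigs was 0.92 for INHA, 0.91 for CYP19A1, 0.88 for INHBB, 0.83 for INHBA and 0.73 for POR, and 0.28 for LHCGR. Over these 6 pigs rho was 0.60 for POR and 0.43 for LHCGR, so both were no longer above 0.7 in r and rho, and their relations at this limit rest on rpFSH 2 and rpFSH 3. GATA4, whose locus also carries NEIL2, went the other way, from r = -0.04 over 8 pigs to r = 0.97 and rho = 0.94 over 6. No p is given, since the sum is over loci chosen with their values known, and 26 relations were computed. In rpFSH 1 and rpFSH 4, the highest pigs at the 5 loci, the 6 genes differed in rank among the 10 pigs. rpFSH 1 was 1st in INHA and LHCGR, 3rd in POR, 7th in CYP19A1 and INHBB and 8th in INHBA. rpFSH 4 was 3rd in INHBA, 4th in LHCGR, 5th in CYP19A1, 6th in INHA and INHBB and 7th in POR.

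**Figure D4:**
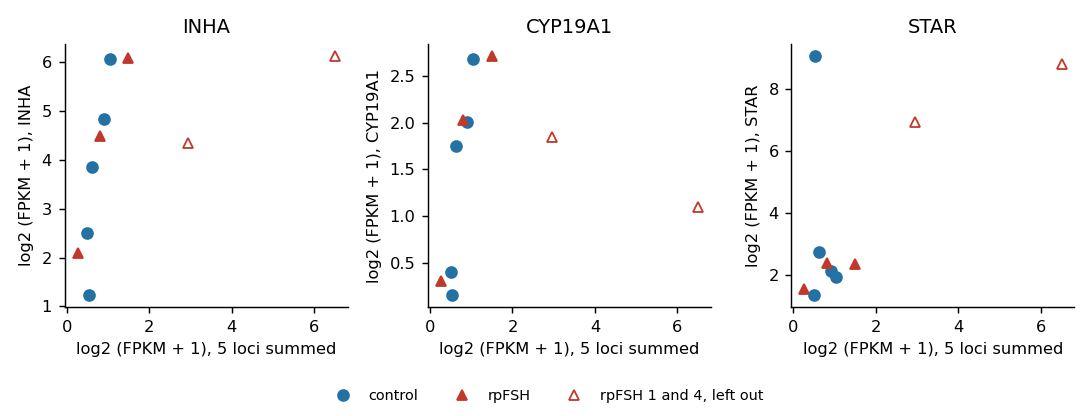
Log2 (FPKM + 1) of INHA, CYP19A1 and STAR against that of the 5 chromosome 4 loci summed, with each point 1 pig. Over the 8 filled points r was 0.87 for INHA, 0.87 for CYP19A1 and -0.17 for STAR, and the open points are rpFSH 1 and rpFSH 4, which were left out.

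Other olfactory receptors were low. Besides MSTRG.23826 the table describes 784 loci as olfactory receptors, of which 346 had no count in any pig and 78 reached a mean FPKM of 0.1. The highest mean, 0.692 FPKM, was that of MSTRG.6869 on chromosome 12, and the highest value in any pig was 2.42, against 14.9 for MSTRG.23826 in rpFSH 1. rpFSH 1 was the highest pig at 3 of the 78 (3.85%), beside 13.2% of all loci tested. Among the 5 with the highest means, MSTRG.33815 (olfactory receptor 2D3-like, chromosome 9) read between 0.362 and 0.583 FPKM in the controls and between 0.619 and 1.02 in the treated pigs. Its groups did not overlap, but its log2 ratio of 0.79 was below the limit, and its adjusted p by limma was 1.00. The share of all loci without overlap was not computed, so nothing is read from this. By limma 1 of the 78, this locus, had an unadjusted P under 0.05, beside 4.13% of all loci. MSTRG.17593, ENSSSCG00000039458 and MSTRG.17568 overlapped between the groups. 0 of the 78 was called by limma, beside 1.92% of all loci. edgeR and DESeq2 each called 9 of the 78, with 1 higher and 8 lower in the treatment group, beside 3.59% and 3.90% of all loci. The difference between these shares was not tested.

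Genes of olfactory neurons were read from a list of 16, which holds parts of the signalling cascade, receptor transport genes, a marker and regulators of receptor gene choice. Of these, 14 were found and 8 tested. 0 of these 8 was called by limma, beside 1.92% of all loci. edgeR and DESeq2 each called 1 of the 8, as higher in the treatment group, beside 3.59% and 3.90% of all loci. Of the 8, only PDE1C of the signalling cascade had a log2 ratio of mean FPKM beyond the limit, at 1.42. It read between 0.271 and 0.584 FPKM in the controls and between 0.216 and 2.06 in the treated pigs, with 0.374 in rpFSH 1. The 3 with the highest means were the transcription regulators EBF1 (6.52 FPKM) and LDB1 (4.59) and the adenylyl cyclase ADCY3 (4.14), which other tissues express as well. The channel subunit CNGA2 and the G protein GNAL, both of the signalling cascade, had means of 0.0156 and 0.0273 FPKM. RTP1, which brings the receptors to the cell surface, read 0.0599 FPKM in rpFSH 1 and at most 0.0676 in any pig, and RTP2 was listed at the table's lowest value of 0.0001 in every pig. Of 3 markers of the olfactory epithelium 2 were found, CNGA2 and the G protein subunit GNG13. They summed to 0.365 FPKM in rpFSH 1 and to between 0.00750 and 0.687 over all pigs.

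The chromosome 4 run was one of several places where a single library stood out. Counting loci at which (FPKM + 0.1) was at least 10-fold over that of the median of the other 9 pigs, rpFSH 1 had 445 of 36339, control 2 had 576 and control 5 had 485, while the other 7 pigs had between 133 and 159. Under this 10-fold limit the run with MSTRG.23826 was 10 loci long, but 6 on CPM from the counts. In FPKM, rpFSH 1 held 6 runs of at least 10 loci. The longest, of 23 loci, was on chromosome 13 from 141663367 to 142776612, and one of 19 loci on chromosome 10 from 22615072 to 22866904 included NR5A2. Control 2 had a run of 28 loci on chromosome 2, from 123572450 to 124196942, and rpFSH 5 one of 21 on chromosome 1, from 228338454 to 228752688. Of the 435 loci raised in rpFSH 1 outside the neighbourhood of the 5 loci, control 2 was the second highest pig at 222 (51.0%) and rpFSH 4 at 51 (11.7%). At the 5 loci the second pig was rpFSH 4 each time.

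**Figure D5:**
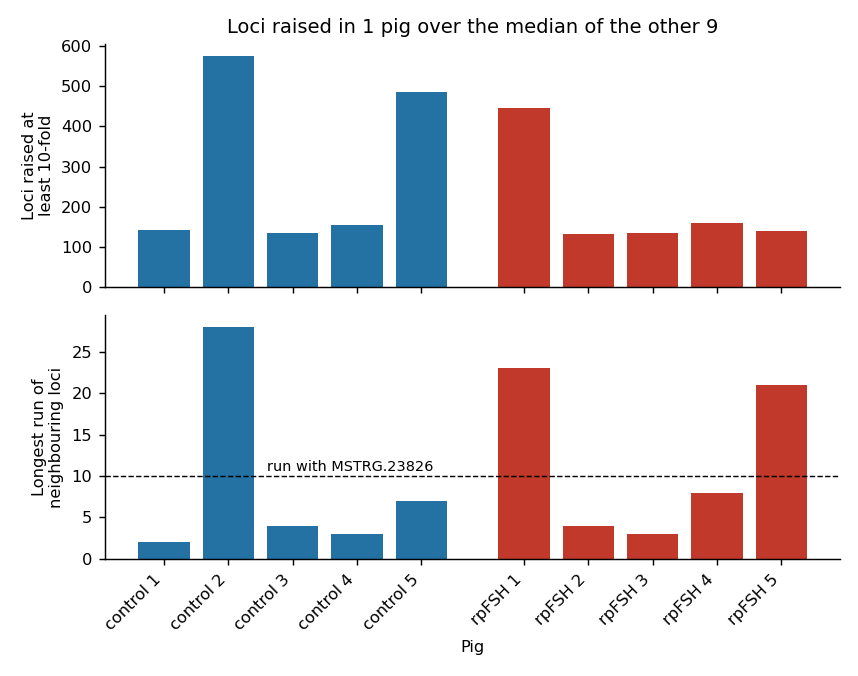
Number of loci per pig with (FPKM + 0.1) at least 10-fold over that of the median of the other 9 pigs (upper panel), and the longest run of neighbouring loci so raised (lower panel), with controls in blue and treated pigs in red. The dashed line is the run of 10 loci with MSTRG.23826, which is shorter than the longest runs of control 2 (28), rpFSH 1 (23) and rpFSH 5 (21).

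Since MSTRG.23826 was high in a single pig, a Pearson r over the 10 pigs picks out loci that are high in rpFSH 1, and their level there is no finding. Outside the neighbourhood of the 5 loci, the Pearson r of log2 (FPKM + 1) was highest for MSTRG.35569 on chromosome 9 (r = 0.997), which read 2.41 FPKM in rpFSH 1, 0.329 in rpFSH 4 and at most 0.0160 in the controls. MSTRG.6317 and MSTRG.9014 followed with r = 0.992 and 0.991. Of the 10 most alike loci, 2, MSTRG.3900 and MSTRG.3896, lie in the chromosome 10 run beside NR5A2. The 5 most alike with a gene symbol beside them were ZFP92, SLC24A1, MSTRG.4488, BSP1 and TP53BP2, with r between 0.976 and 0.986. MSTRG.4488 has a blank type, and the table writes PIP4K2A beside it. TP53BP2, which encodes a partner of p53, was the most expressed of them, at 30.9 FPKM in rpFSH 1, 13.6 in rpFSH 4 and between 8.55 and 9.89 in the controls. BSP1, which encodes a seminal plasma binder of sperm, read 8.84 in rpFSH 1, 0.0940 in rpFSH 4 and at most 0.167 elsewhere. On log2 (FPKM + 0.01) among loci averaging an FPKM of 1 or more, chosen after seeing the data, the 5 were MSTRG.23467, VPS16, ATG101, GPS1 and TP53BP2, with r between 0.88 and 0.92, and 1 of the 5 was thus shared. MSTRG.23467, with SDHC written beside it, also has a blank type.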

How the data were processed

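RNA-seq values of 10 ovary libraries were used, 1 per pig. Per the methods, Cutadapt was used for trimming, Hisat2 and Bowtie2 for mapping to Sscrofa11.1, and StringTie and Ballgown for assembly and quantification (the submitters' notes name HISAT2 2.0, StringTie 1.3.0 and Bowtie 0.12.2). The deposited table gives FPKM per locus, with 0.0001 as the lowest value, and deposited counts, whose making is not stated. All 20 sample columns were used.

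Groups were compared in a single fit by limma 3.58.1 (lmFit, eBayes with trend) on log2 (FPKM + 1) over loci averaging at least 0.1 FPKM, with Benjamini-Hochberg adjustment over all 36339. edgeR 4.0.16 and DESeq2 1.42.0 on the counts were alternatives, beside other pseudocounts, filters and scalings, a block for the replicate number and the omission of each pig. The fits were tested on simulated counts in which a changed locus moved by the same factor in every treated pig. This does not cover loci raised in a single pig. Other steps were run in Python 3.11.15 (pandas 2.3.3, scipy 1.17.1, numpy 2.4.6). A permutation test of the relation with steroidogenic genes, laid down in the design, is not given. The members and gene lists were chosen with earlier results of these data known. Named were the 5 loci, loci in or nearest to their span, listed genes with a reason stated, and the loci most like MSTRG.23826. 3 counts (0.0399 to 0.0462 CPM) were the floor. 1 gene of the steroidogenic list is not reported here and was left out of its counts. No batch is named in the labels or methods.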

Additional observations from a re-analysis of the deposited data

Results flagged for a closer look

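Within groups of 5 pigs, a pig was marked where its gap to the nearest other pig took up more of the group's range than Dixon's 95% limit. 77 groups were examined and 28 marked. rpFSH 1 was the marked pig in 19 of them and control 2 in 8. Among the marks of rpFSH 1 are the 5 chromosome 4 loci, their sum and 7 neighbours, which overlap and were taken because they are high in that pig. The rate of about 1 in 20 groups that chance marks is therefore no measure for them. It also assumes normally distributed values, whereas the gaps were taken on FPKM without a log. It is therefore no measure for the other marks either, and all gaps are a description.

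At the chromosome 4 loci the gap of rpFSH 1 took up 0.94 of the range for MSTRG.23826, 0.899 for MSTRG.23822, 0.934 for MSTRG.23823, 0.937 for MSTRG.23824 and 0.93 for MSTRG.23830, and 0.927 for their sum. For the neighbours it was 0.933 for MSTRG.23821, 0.923 for MSTRG.23825, 1 for MSTRG.23827, 0.925 for MSTRG.23828, 0.931 for MSTRG.23829, 0.91 for the CHD1L locus MSTRG.23831 and 0.893 for MSTRG.23832. No control was marked at these loci.

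At the steroidogenic genes, rpFSH 1 was marked in its group for SCARB1 (0.797), STAR (0.734), CYP11A1 (0.781), FDX1 (0.896), HSD17B7 (0.843) and NR5A2 (0.782). Control 2 was marked for SCARB1 (0.981), STAR (0.992), CYP11A1 (0.983), FDX1 (0.903), HSD3B1 (0.941), CYB5A (0.915), HSD17B2 (0.948) and HSD17B7 (0.806). Control 3 was marked for CYP17A1 (0.853), the enzyme that makes androgens. The cause of these gaps was not tested.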

How the results depend on the processing

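The log2 ratio of the 5 loci summed was 4.90. It was 1.76 as a ratio of group medians, 2.16 as the mean within same-numbered pairs (the replicate block), between 1.83 and 5.22 with 1 pig left out, and 0.47 without rpFSH 1 and rpFSH 4. The lowest of the leave-one-out values, 1.83, was that without rpFSH 1. At MSTRG.23822 the last setting gave -0.20. Scaling moved no ratio by more than the spread of the controls. Limma called 696 loci (262 higher, 434 lower), 267 with a mean FPKM of at least 1, and between 632 and 942 with 1 pig left out, while edgeR called 1305 (397 higher) and DESeq2 1416 (424 higher). Quantile normalization gave 694 calls, 341 of them higher. The adjusted p was under 0.05 for 0 loci (1500 had an unadjusted P under 0.05), for 0 by edgeR, for 218 by DESeq2 and for between 0 and 2 with 1 pig left out. Of the flanking loci 0 was called, 4 by edgeR, and 1 (MSTRG.23811, antisense to PDZK1) with the replicate block and without rpFSH 2. Of the olfactory receptor loci 0 was called, 2 with a pseudocount of 0.1 and 1 with 0.01, 2 with upper-quartile scaling and 2 with quantile normalization, 13 of 784 without a filter, 9 by edgeR, 9 by DESeq2, and between 0 and 6 with 1 pig left out, 6 of them without control 2. No receptor reached a mean FPKM of 1. Of the 8 tested genes of olfactory neurons 0 was called, 1 by edgeR, 1 by DESeq2, and 1 each without rpFSH 1 and without rpFSH 2. No setting called a steroidogenic gene. Loci raised in rpFSH 1 numbered 445, 874 at 5-fold, 708 with a pseudocount of 0.01 and 189 with a mean FPKM of at least 1. The run with MSTRG.23826 held 10 loci, 12 at 5-fold, 9 with a mean FPKM of at least 1 and 6 on CPM. On CPM, 12 runs of rpFSH 1 were at least as long as it. The 6 genes related to the chromosome 4 level were the same 6 with a pseudocount of 0.1, with upper-quartile scaling and with CPM. Same-numbered pairs had correlations of deviations between -0.299 and 0.0668, so the numbers were not taken to pair the pigs, and the replicate block called 687 loci. The causes were not tested.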
